A study of Mus musculus with 32 samples.

Results

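Transcript levels of mES cells at 48 h after the start of GATA6 induction were compared with those at 2 h, using the 4 samples of each time point, 8 of the 32 samples in the series. The comparison covered every row of the deposited table, 54233 genes, of which 15227 passed a filter of at least 10 normalized counts in at least 4 of the 32 samples and were tested. A normalized count is a gene's reads over the size factor that the authors used for its library. All samples came from mouse embryonic stem (mES) cells of line KH2, strain C57BL/6, which carry 1 copy of a TRE:GATA6-DSREd2 transgene that expresses GATA6 when doxycycline (Dox) is present. At 2 h the cells had been in serum medium (15% FBS, with LIF) and Dox at 1 µg/ml for the whole 2 h, after culture in 2i medium with inhibitors of MEK and GSK3. At 48 h the cells had received Dox in the same serum medium for 12 h and serum medium without Dox from then on. Both groups were thus sampled out of the inhibitors, the earlier one only 2 h after the change of medium. The time spent in serum, the withdrawal of Dox and the action of GATA6 cannot be told apart, since no uninduced cells in serum were measured at 48 h. The cells were 1 line, RNA was made from whole cultures, and in such bulk samples fewer cells of a type and less RNA per cell cannot be told apart.

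The primitive endoderm (PrE) is the epithelium that separates from the pluripotent epiblast (Epi) in the blastocyst. GATA6 stands at the top of its transcription factor network, above GATA4, SOX17 and SOX7, and opposes the Epi factors NANOG and SOX2. PrE cells lay down a basement membrane of laminin and type IV collagen on which the epiblast rests. Their descendants are the visceral endoderm, which takes up maternal proteins through the receptors megalin and cubilin, and the parietal endoderm, which secretes Reichert's membrane. FGF signalling through MEK and ERK favours PrE over Epi in the embryo, and its activity is read out by immediate early genes and by feedback inhibitors such as the dual-specificity phosphatases and Sprouty proteins.

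Libraries held 6786994 to 10790211 reads on genes at 2 h and 4220117 to 9604532 at 48 h. The replicates fell into pairs. Replicates 1 and 2 differed by little more than counting error, with a chi-square per degree of freedom of 1.45 at 2 h and 1.90 at 48 h, and so did replicates 3 and 4, with 1.49 and 1.46. Between the pairs it was 11.3 to 18.6. The study's notes state that replicates were carried out independently, but not whether each was a separate culture nor what sets the pairs apart. The p-values therefore measure only the spread between samples, which may in part be technical. That spread was estimated over all 32 samples, so the standard error (SE) and p-value of a gene also carry its spread at other time points.

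At an FDR below 0.1 and a change of at least 4-fold, the threshold of the study, 1294 genes were higher at 48 h (8.5% of the genes tested) and 1165 were lower (7.65%). With the FDR alone, 36.9% of genes were higher and 38.3% lower. All 4 samples at 48 h lay above all 4 at 2 h for 31.9% of genes and below them for 32.1%. The median log2 fold change of all genes was -0.03, the median of the genes called higher was 3.08 and that of the genes called lower was -3.01. Many of these genes were all but absent from 1 side: 304 of the genes called higher had at most 3 reads in every sample at 2 h, and 336 of the genes called lower had at most 3 reads in every sample at 48 h. Genes called higher took 1.25% ± 0.0887 (SD, n = 4) of the reads at 2 h and 14.0% ± 1.80 at 48 h, whereas genes called lower went from 5.60% ± 0.285 to 0.711% ± 0.0735. Below, "rose" and "fell" are used only of genes past the threshold, fold changes are on the log2(normalized count + 1) scale, and adjusted p-values are from limma with Benjamini-Hochberg adjustment over all genes tested. Counts of list members are to be read beside the 8.5% higher and 7.65% lower among all tested genes.

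**Figure D1:**
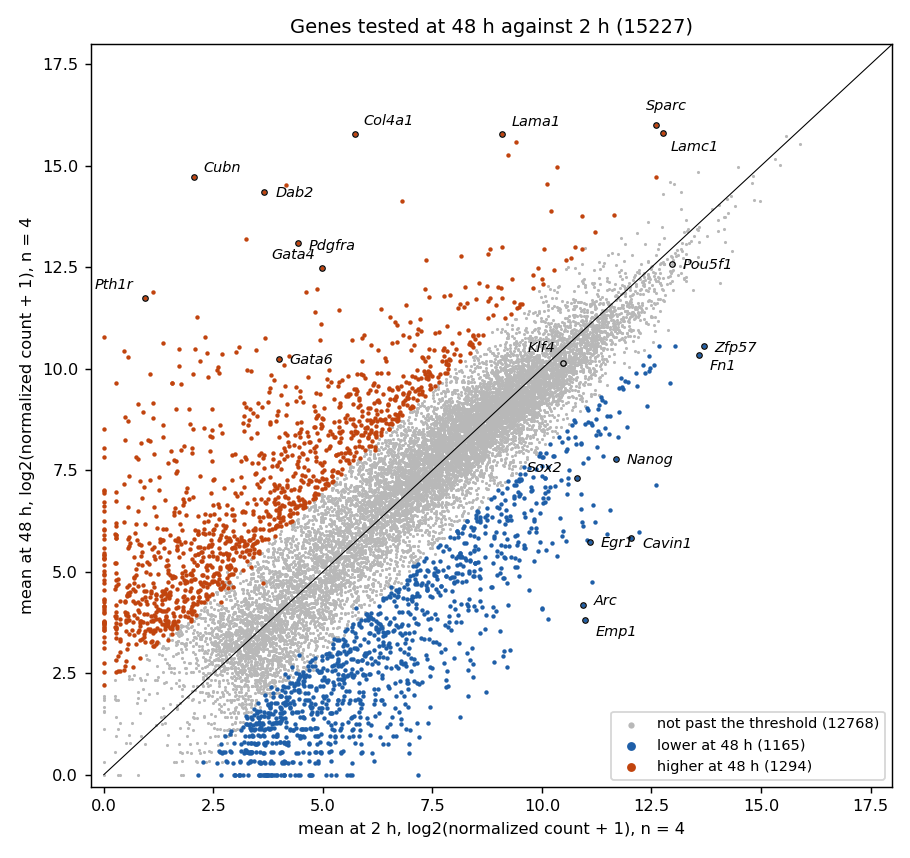
Mean log2(normalized count + 1) of each tested gene at 2 h (x axis) and at 48 h (y axis), n = 4 samples each, with 1294 genes called higher in red, 1165 called lower in blue and the rest in grey. *Cubn*, *Dab2* and *Col4a1* lay far above the diagonal, *Emp1*, *Arc* and *Cavin1* far below it, and *Pou5f1* and *Klf4* close to it.

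The transgene and the endogenous *Gata6* gene moved in opposite directions. The transgene row held 540.3, 510.3, 682 and 739.5 normalized counts in the samples at 2 h and 81.0, 60.3, 94.1 and 90.8 at 48 h, long after the withdrawal of Dox (log2 fold change -2.91 ± 0.31 SE, adjusted p = 1.11e-09). All samples at 48 h were below all samples at 2 h, and none was at 0. *Gata6* itself went from 11.4, 14.3, 16.4 and 17.2 to 1049, 1044, 1323 and 1425, and again the groups did not overlap (log2 fold change 6.26 ± 0.15 SE, adjusted p = 1.22e-24). At 0 h it averaged 0.371, and it passed through 171 at 4 h and 913 at 24 h. How reads that could come from either copy were assigned to these rows is not given in the sources used here.

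Of 14 tested PrE transcription factors 11 rose, none fell, and their median log2 fold change was 6.85. *Gata4*, the GATA factor that joins GATA6 in the PrE, held 16.6, 12.1, 37.5 and 55.0 normalized counts at 2 h and 4994, 4991, 6527 and 6439.9 at 48 h (log2 fold change 7.74 ± 0.30 SE, adjusted p = 1.16e-19). The mean at 0 h was 26.0, the samples at 2 h overlapped those at 0 h, and the means of later time points were 337 at 8 h and 2783 at 24 h. *Sox17*, an HMG-box factor of the endoderm, went from 1.04, 3.02, 3.52 and 1.64 to 1105, 1059, 1052 and 1061 (log2 fold change 8.41 ± 0.29 SE, adjusted p = 7.75e-21), and its 4 samples at 48 h were nearly equal. *Sox7*, its close relative, reached 665, 697, 1146 and 1232 (log2 fold change 8.00 ± 0.35 SE, adjusted p = 1.47e-18). Here replicates 3 and 4 were higher than replicates 1 and 2.

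Liver-enriched factors that extraembryonic endoderm shares rose as well. *Hnf4a*, which drives secretory genes of visceral endoderm, went from 1.93 ± 1.80 to 800.1 ± 47.3 and *Foxa2*, a pioneer factor of endoderm, from 1.55 ± 1.38 to 391 ± 54.1 (mean ± SD, n = 4). The forkhead gene *Foxq1* had the largest rise of the list, from 1.04, 0.755, 1.17 and 3.28 to 1489, 1490.5, 1678 and 1671 (log2 fold change 9.36 ± 0.34 SE, adjusted p = 1.70e-20). *Hhex* and *Cited1* rose less (log2 2.20 and 4.06). Short of the threshold were *Foxa1* (1.68 to 3.85), *Foxa3* (15.3 to 59.9) and *Klf9* (624 to 981). *Hnf4g* and *Gata5*, with no more than 1 read per sample, were not tested. Per kilobase of exon, *Gata4* stood at 1469.8 normalized counts per kb at 48 h, above *Foxq1* (327), *Sox7* (283), *Sox17* (224) and *Gata6* (186).

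**Figure D2:**
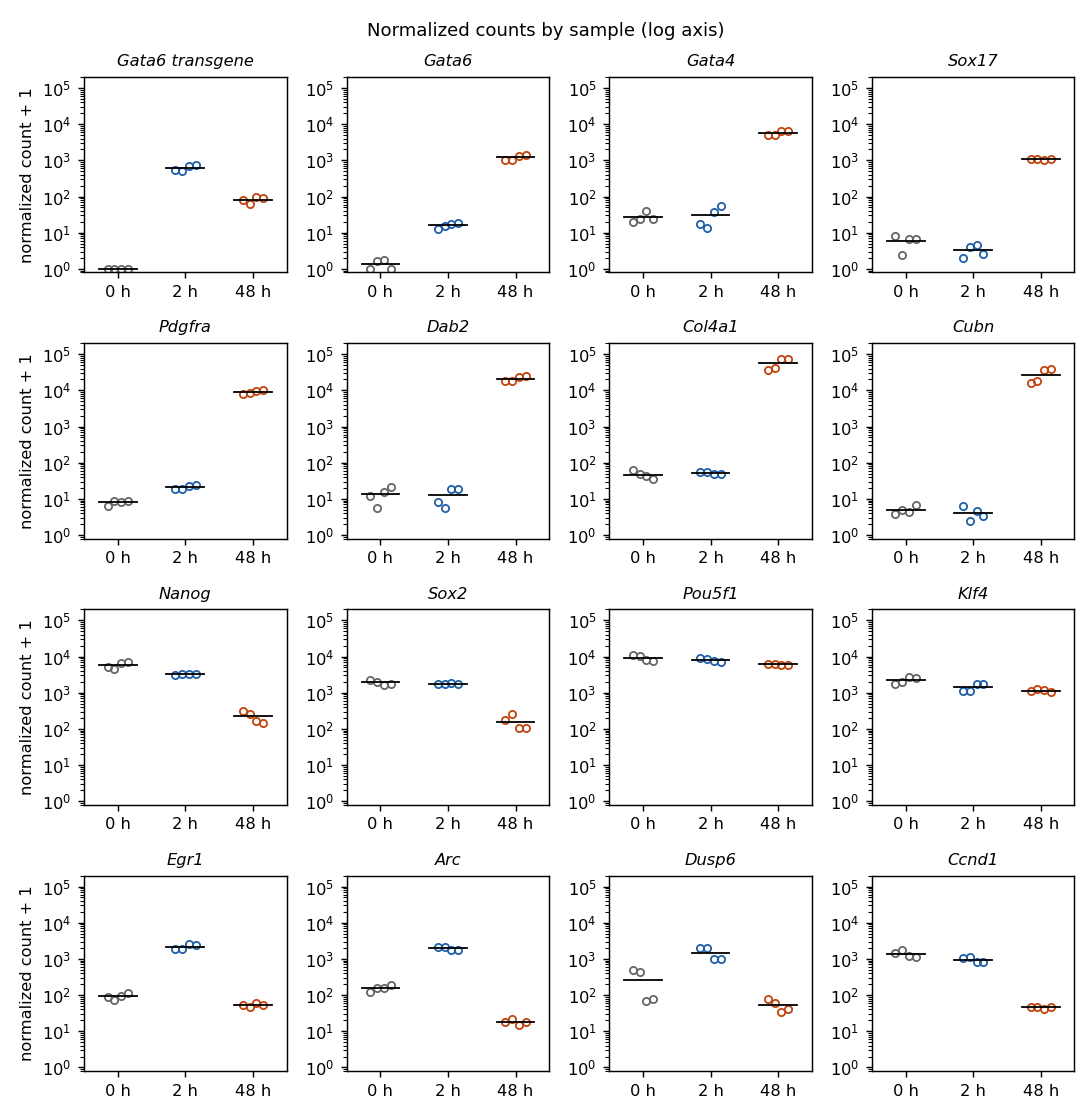
Normalized count + 1 on a log axis for 16 genes in each of the 4 samples at 0 h (grey), 2 h (blue) and 48 h (red), with the mean as a line. The *Gata6* transgene is high at 2 h and lower at 48 h, endoderm genes from *Gata6* to *Cubn* are high at 48 h, *Pou5f1* and *Klf4* stay within the same decade, and *Egr1*, *Arc* and *Dusp6* are highest at 2 h of these 3 time points.

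Of the 32 gene lists used here, basement membrane genes gained most in share of reads. Of 26 tested members 15 rose and 1 fell, with a median of 2.85, and the list went from 0.462% ± 0.0720 of all reads at 2 h to 5.20% ± 1.23 at 48 h. The share at 48 h was 4.01 and 4.26% in replicates 1 and 2 and 6.25 and 6.27% in replicates 3 and 4, all above the 0.397 to 0.526% at 2 h. The 5 genes with the largest gain in normalized counts among the called genes were *Lama1*, *Lamb1* and *Lamc1*, the chains of a laminin trimer, *Col4a1*, and *Sparc*, a collagen-binding glycoprotein. *Col4a1* held 55.1, 55.1, 49.2 and 48.4 at 2 h and 36331, 41188, 73013 and 75092 at 48 h (log2 fold change 9.98 ± 0.19 SE, adjusted p = 1.65e-27). Every sample at 48 h was far above every sample at 2 h, and within 48 h replicates 3 and 4 were about 2 times as high as replicates 1 and 2.

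*Col4a1* and *Col4a2* encode the chains that wind together into type IV collagen, and they lie head to head on chromosome 8. Their RefSeq start sites on GRCm38.p6, at 11312826 on the minus strand and 11312805 on the plus strand, are 21 bp apart. *Col4a2* rose alongside its neighbour, from 15.6, 17.4, 23.4 and 11.5 to 13387, 15229, 32328 and 32686 (log2 fold change 10.27 ± 0.24 SE, adjusted p = 6.36e-25). The window from 250 bases before to 50 bases after the *Col4a2* start, at chr8:11312555-11312854 on the plus strand, is printed because the windows of both genes share 78 bases of it (chr8:11312777-11312854), which are in capitals.
Col4a2: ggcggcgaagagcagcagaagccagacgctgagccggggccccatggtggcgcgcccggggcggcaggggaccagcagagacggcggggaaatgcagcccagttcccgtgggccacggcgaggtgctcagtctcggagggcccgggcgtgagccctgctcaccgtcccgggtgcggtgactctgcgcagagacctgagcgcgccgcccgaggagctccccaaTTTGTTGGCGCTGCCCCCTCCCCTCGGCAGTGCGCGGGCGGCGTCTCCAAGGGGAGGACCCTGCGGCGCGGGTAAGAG

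The laminin chains reached similar levels per kilobase from unequal starting points. *Lamc1* was at 842 normalized counts per kb of exon at 2 h, against 56.2 for *Lama1* and 68.5 for *Lamb1*. At 48 h the levels were 6963, 5854 and 4972. The log2 fold changes were accordingly 6.63 ± 0.22 SE for *Lama1*, 6.16 ± 0.11 SE for *Lamb1* and 3.03 ± 0.22 SE for *Lamc1*. *Sparc* went from 5212, 5088, 7320.4 and 7409 to 54094, 51429, 79021 and 80201 (log2 fold change 3.40 ± 0.22 SE, adjusted p = 2.52e-14).

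Several enzymes and a chaperone that modify collagen rose as well. *P4ha2* and *P4ha1*, catalytic subunits of collagen prolyl 4-hydroxylase, rose by log2 7.45 and 5.34, and *P4hb*, its partner subunit, by log2 2.11, from 6234 to 27185 normalized counts. *Serpinh1*, the collagen chaperone, rose from 597 ± 38.3 to 39384 ± 5778, *Plod2*, a lysyl hydroxylase, from 543 ± 43.2 to 8224 ± 471, and *P3h2*, a prolyl 3-hydroxylase, from no more than 3 reads per sample at 2 h to 305 ± 79.3, at least 107-fold. *Pxdn*, which cross-links type IV collagen, rose by log2 5.02, and *Hspg2*, the core protein of perlecan, by log2 2.66. Of the 26 members 10 were short of the threshold. Among them were the lysyl hydroxylases *Plod3* and *Plod1* (log2 fold changes 2.00 and 1.83), *P4ha3* (1.82), *Crtap*, which acts with prolyl 3-hydroxylase (1.47), laminin chain *Lamb2* (1.62) and fibulin *Fbln1* (0.94). The remaining 4 were laminin chain *Lama5*, at 1745 and 766 normalized counts, nidogens *Nid1* (3768 to 6442) and *Nid2* (2410.1 to 3250.0), and agrin (*Agrn*, 2412 to 2865). *Col18a1*, the collagen of endostatin, fell, from 991, 882, 499 and 487 to 174, 168, 145 and 128 (log2 fold change -2.15 ± 0.26 SE, adjusted p = 1.16e-08), short of the threshold without replicate 1 at 2 h (-1.96) and in replicates 3 and 4 alone (-1.85). *Lama3*, a laminin chain outside the list, fell by 5.93 on the log2 scale, from 1021 ± 121 to 16.1 ± 4.53.

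The endocytic apparatus of visceral endoderm held the largest single rise. Of 15 tested members 9 rose and 1 fell (median 3.72). *Cubn*, which encodes cubilin, went from 5.19, 1.51, 3.52 and 2.46 to 15660.0, 18603, 35811 and 38175 normalized counts (log2 fold change 12.63 ± 0.35 SE, adjusted p = 3.19e-23), with replicates 3 and 4 about 2 times as high as replicates 1 and 2. *Lrp2*, which encodes megalin, went from 58.2, 51.3, 175 and 158 to 8147, 9608, 25762 and 27788 (log2 fold change 7.32 ± 0.46 SE, adjusted p = 1.14e-14). *Amn*, whose product anchors cubilin in the membrane, rose to 929 ± 287 from at most 3 reads at 2 h, at least 327-fold, and *Nostrin* to 3819.7 ± 236, at least 1345-fold. *Dab2*, the adaptor that couples megalin to clathrin, went from 7.27, 4.53, 17.6 and 17.2 to 17629, 18178, 23804 and 24409 (log2 fold change 10.86 ± 0.37 SE, adjusted p = 5.49e-21). *Myo6*, *Clcn5*, *Stard10* and *Folr1* rose by log2 5.16, 4.52, 3.72 and 3.29. The transferrin receptor *Tfrc* was the member that fell, from 3957, 4154, 3234 and 3376 to 1025, 970.4, 445 and 429 (log2 fold change -2.47 ± 0.21 SE, adjusted p = 8.21e-12).

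*Dab2* and *Habp2*, which encodes a secreted serine protease, are shown with their promoters as examples of windows that held 2 GATA motifs. The motif searched was AGATAA with A or T as its initial base and A or G as its last, on either strand, and positions are those of its leftmost base with the start site as 0. In *Dab2* (GRCm38.p6, chr15:6299539-6299838, plus strand) the matches, in capitals, began at -179 and 14, and in *Habp2* (chr19:56287662-56287961, plus strand) at -205 and -108. A second window of *Dab2*, starting at 6386498, held no match.
Dab2: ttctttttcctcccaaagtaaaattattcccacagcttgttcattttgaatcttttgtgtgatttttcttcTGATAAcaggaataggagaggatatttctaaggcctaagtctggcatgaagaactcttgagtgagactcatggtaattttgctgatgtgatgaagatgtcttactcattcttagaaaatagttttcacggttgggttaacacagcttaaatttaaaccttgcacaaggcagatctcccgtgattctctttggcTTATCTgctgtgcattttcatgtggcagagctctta
Habp2: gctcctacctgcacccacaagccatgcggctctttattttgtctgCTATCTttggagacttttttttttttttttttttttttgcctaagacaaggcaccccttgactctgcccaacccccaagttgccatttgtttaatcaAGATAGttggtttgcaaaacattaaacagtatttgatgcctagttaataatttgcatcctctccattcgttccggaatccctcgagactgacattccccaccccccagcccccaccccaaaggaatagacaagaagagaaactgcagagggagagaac

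*Habp2* had no read in any sample at 2 h and 1396, 1530.0, 2086 and 1965 normalized counts at 48 h, at least 614-fold more (log2 fold change 10.75 ± 0.27 SE, adjusted p = 3.24e-24). Of the 15 risers named for the size of their change or their absence at 2 h, 12 had a window in the RefSeq table and 3 of these held the motif, the third being *Rab3il1*, a guanine nucleotide exchange factor for a Rab GTPase, whose windows held 0 to 3 matches. Across the table the motif was in 29.8% of 32851 windows. It was in 21.9% of the 10657 tested genes with a window, in 23.0% of the 969 called higher and in 29.5% of the 790 called lower, counting a gene if any of its windows held the motif. The 3 of 12 named risers stood near the share over all tested genes.

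Genes all but absent at 2 h included *Pth1r*, the parathyroid hormone receptor of parietal endoderm. It held 2.08, 0.755, 0 and 0.821 normalized counts at 2 h and 2900.2, 2857, 4054 and 3875 at 48 h, at least 1205-fold more. *Spink1*, a secreted trypsin inhibitor, reached 1430.3, 1426, 1368 and 1311, at least 487-fold, and *Rab3il1* 1232, 1185, 1673 and 1685, at least 508-fold. Among genes with more than 3 reads in each sample at 2 h, others of the 10 largest rises were *Srgn*, which encodes the proteoglycan core serglycin (4.16, 8.30, 10.6 and 10.7 to 8619, 8613, 10114 and 10405, log2 fold change 10.03 ± 0.55 SE, adjusted p = 4.04e-16), *Pdgfra*, *Dkk1*, *Gata4*, *Cyp4f14*, *P4ha2* and *Rhpn1*. *Cyp4f14*, a fatty acid hydroxylase, stood at 1326 ± 86.7 at 48 h and at 47.4 at 96 h, and *Rhpn1* at 1483 ± 286 and 681.

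Markers of the later endoderm types were present only in part. Of 25 listed secreted proteins of visceral endoderm 11 could be tested, 7 rose and 1 fell (median 4.52). *Ttr*, the transthyretin gene, had 0 reads in all samples at 2 h and 15.1, 20.7, 26.4 and 27.9 normalized counts at 48 h, at least 7.93-fold more, and *Fgb*, a fibrinogen chain, likewise went from 0 reads to 47.1, 33.9, 20.2 and 15.5. *Apom*, an apolipoprotein, and *Mttp*, which loads lipid onto apolipoprotein B, rose by log2 4.99 ± 0.26 SE and 4.67 ± 0.21 SE. *Apoa2* fell, from 110.1, 113, 85.6 and 94.4 to 3.77, 5.65, 6.16 and 6.19 (log2 fold change -3.99 ± 0.24 SE, adjusted p = 4.76e-15). The classical markers *Afp*, *Alb*, *Apoa1* and *Apob* never exceeded 5 reads at either time and were not tested.

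Of 13 parietal endoderm genes 8 rose and none fell (median 3.17). Besides *Pth1r*, *Lamb1* and *Sparc* they were *Plat*, tissue plasminogen activator (14.5 to 460.0), *Thbd*, thrombomodulin (1.99 to 28.7), *Tfpi*, a coagulation inhibitor (433 to 3268), *Snai1*, a zinc finger repressor (6.23, 6.79, 5.86 and 7.39 to 199.8, 224, 245 and 267), and *Stra6*. *Stra6*, the retinol transporter, held 21.7, 22.6, 102 and 90.8 at 48 h, with replicates 3 and 4 about 4 times above replicates 1 and 2. *Vim* went from 2586 to 1460.0 and did not pass the threshold. Of 9 anterior visceral endoderm genes 5 rose and 1 fell. *Dkk1*, the Wnt antagonist, went from 4.16, 3.77, 4.69 and 3.28 to 1421, 1360.4, 2087 and 2147 (log2 fold change 8.44 ± 0.29 SE, adjusted p = 5.17e-21), *Hesx1* from 33.7 ± 15.6 to 328 ± 21.2, *Lhx1* from 0 reads to 16.8 ± 9.38, and *Hhex* and *Sfrp5* rose by log2 2.20 and 3.06. *Sfrp1*, another Wnt antagonist, fell from 1391 ± 443 to 153 ± 17.7. *Cer1* and *Gsc* had at most 5 reads and were not tested.

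**Figure D3:**
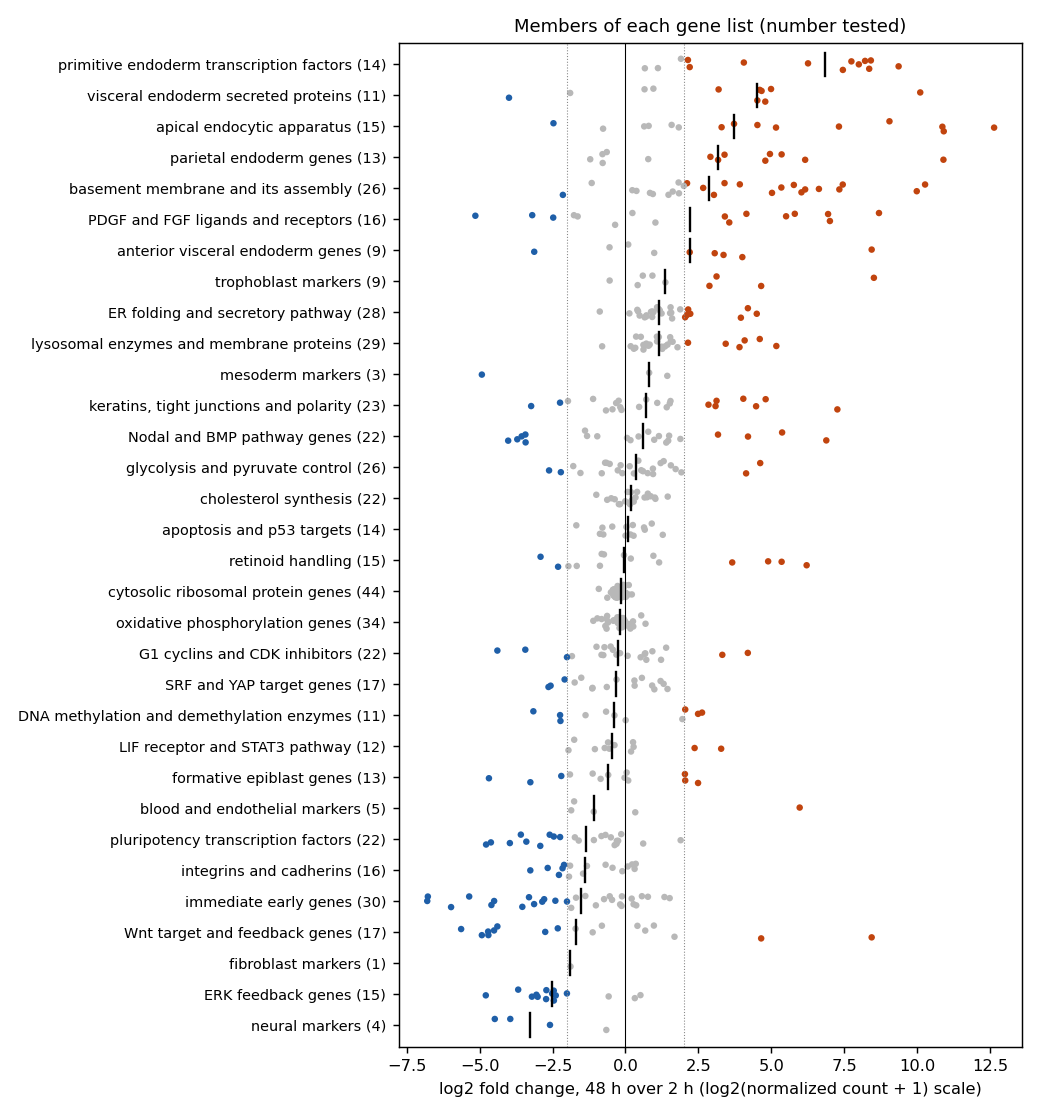
Log2 fold change of 48 h over 2 h (x axis) for each tested member of 32 gene lists, ordered by the list's median (black bar), with members called higher in red, called lower in blue and others in grey, and dotted lines at the 4-fold threshold. PrE transcription factors have a median of 6.85, ERK feedback genes of -2.51, and ribosomal protein genes lie within 1 log2 unit of 0.

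Pluripotency factors did not fall together. Of 22 tested members 9 fell and none rose (median -1.34). *Nanog* held 3164, 3325, 3371 and 3279 normalized counts at 2 h and 308, 262, 165 and 144 at 48 h (log2 fold change -3.96 ± 0.22 SE, adjusted p = 7.48e-16), and *Sox2* 1774, 1772, 1810.2 and 1784 and 177, 251, 105 and 102 (log2 fold change -3.59 ± 0.21 SE, adjusted p = 1.17e-15). Neither gene's groups overlapped. *Pou5f1*, which encodes OCT4, held 9121, 8465, 7439 and 7030.0 at 2 h and 6413, 6419.7, 5971 and 5859.9 at 48 h (log2 fold change -0.37 ± 0.10 SE, adjusted p = 0.00173). Its groups did not overlap either, but the difference was far from 4-fold. *Klf4* overlapped between the groups, at 1111, 1138, 1757 and 1727 and 1094, 1236, 1158 and 1052 (log2 fold change -0.30 ± 0.13 SE, adjusted p = 0.0316), and its sign depended on the pair of replicates: 0.05 in replicates 1 and 2 and -0.66 in replicates 3 and 4.

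The largest falls of the list were those of the nuclear receptors *Nr5a2* (557, 559, 361 and 393 to 19.8, 11.3, 11.4 and 23.7, log2 fold change -4.78 ± 0.26 SE, adjusted p = 2.27e-16) and *Nr0b1* (711 ± 76.0 to 28.7 ± 7.14). *Esrrb*, *Tfcp2l1*, *Klf2*, *Prdm14* and *Dppa3* fell by 3.40, 2.46, 2.60, 2.92 and 2.24 on the log2 scale. The log2 fold change of *Dppa3* was -1.06 in replicates 1 and 2 alone and -3.42 in replicates 3 and 4, and its call was lost in the former, without replicate 3 at 48 h (-1.88) and with a pseudocount of 8 (-1.76). *Zfp42*, the REX1 gene, stood at 2509 ± 118 and 825 ± 37.3, short of the threshold. *Klf5* (4629.7 to 3723), *Dppa5a* (5897 to 5334) and *Utf1* (340.1 to 238) overlapped between the groups. *Sall4* and *Tbx3* passed the FDR in the other direction, at log2 1.89 ± 0.09 SE and 0.61 ± 0.16 SE, with *Sall4* at 1129.9 and 4211.

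Among 13 formative epiblast genes, which mark the step between naive and primed pluripotency, 3 rose and 3 fell. The risers were *Dnmt3a*, *Dnmt3b* and *Sall2*, and those that fell were *Foxd3* (log2 -4.68), *Sox3* (log2 -3.26) and *Sox4* (log2 -2.20). The fold change of *Sox3* was -4.20 in replicates 1 and 2 and -2.32 in replicates 3 and 4, and that of *Sox4*, short of the threshold in the former, was -1.58 and -2.83. *Otx2* stood at 16.1 ± 5.65 and 16.8 ± 4.08, and *Fgf5* never exceeded 2 reads. The de novo DNA methyltransferases *Dnmt3a* and *Dnmt3b* rose from 436 ± 10.9 to 2449 ± 88.5 and from 628 ± 78.4 to 2586 ± 65.6. Their cofactor *Dnmt3l* held 2816, 2849.8, 469 and 376 at 2 h and 5937, 6054, 7548 and 7573 at 48 h (log2 fold change 2.62 ± 0.60 SE, adjusted p = 0.000298). At 2 h the pairs of replicates differed about 7-fold, so its fold change was 1.08 in replicates 1 and 2 and 4.17 in replicates 3 and 4. Of the same enzyme list *Tet1*, *Dppa3* and *Zfp57* fell. *Zfp57*, which protects methylation at imprinted regions, had the largest loss in normalized counts among the called genes, from 11519, 11444, 14850.0 and 14969 to 1733, 1865, 1256 and 1135 (log2 fold change -3.16 ± 0.16 SE, adjusted p = 3.05e-17). Maintenance factors *Dnmt1* and *Uhrf1* stayed short of the threshold (log2 -0.67 and -1.37).

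Among 30 tested immediate early genes, several of which had higher means at 2 h than at 0 h, 13 fell and none rose (median -1.54). *Egr1*, a zinc finger factor induced within minutes by ERK signalling, held 1837, 1936, 2501 and 2489 at 2 h and 50.9, 45.2, 58.9 and 53.7 at 48 h (log2 fold change -5.36 ± 0.40 SE, adjusted p = 5.48e-13), beside a mean of 90.6 at 0 h. *Egr3* held 495, 547, 324 and 314 and 3.77, 5.65, 0.880 and 2.06 (log2 fold change -6.79 ± 0.43 SE, adjusted p = 1.39e-14), beside 0.202 at 0 h. *Arc*, an activity-regulated cytoskeletal gene, held 2182, 2153, 1773 and 1773 and 17.0, 20.7, 14.1 and 16.5 (log2 fold change -6.77 ± 0.16 SE, adjusted p = 8.43e-25), beside 154. For all 3 the groups lay far apart, and the mean at 0 h was below every sample at 2 h.

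AP-1 members went different ways. *Fosl1* fell from 222 ± 61.4 to 3.50 ± 3.14 and *Fos* from 171, 171, 164 and 165 to 26.4, 28.3, 39.6 and 31.0 (log2 fold change -2.40 ± 0.33 SE, adjusted p = 1.31e-07). *Fosb* and *Fosl2* fell by 2.85 and 2.79 on the log2 scale. *Jun* (107 to 100.3) and *Jund* (125 to 112) overlapped between the groups, and *Junb* was lower by the FDR alone (194 to 141). *Klf6* and *Rhob* were higher by the FDR alone, at log2 0.56 ± 0.07 SE and 1.51 ± 0.18 SE. *Myc* lay just past the threshold, and short of it without replicate 1 or 2 at 2 h or replicate 3 or 4 at 48 h, at 679, 647, 342 and 378 and 161, 179, 90.6 and 81.5 (log2 fold change -2.01 ± 0.32 SE, adjusted p = 1.89e-06). The mean of *Myc* at 0 h was 124 ± 83.0.

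Feedback genes of ERK had the largest share of falls of the 32 lists. Of 15 tested members 12 fell and none rose, and the median was -2.51. *Dusp6*, the phosphatase that acts on ERK itself, held 1979, 1978, 1013 and 978 at 2 h and 78.2, 58.4, 32.5 and 41.3 at 48 h (log2 fold change -4.79 ± 0.46 SE, adjusted p = 1.34e-10). At 2 h replicates 1 and 2 were about 2 times as high as replicates 3 and 4, and no sample at 48 h came near any at 2 h. *Dusp5*, a nuclear ERK phosphatase, fell from 696 ± 218 to 52.3 ± 10.7, and *Dusp2* from 36.8 ± 16.2 to 3.31 ± 2.82. *Spry4*, *Spry2* and *Spry1*, of the Sprouty family, fell by 2.46, 2.45 and 2.01, and the ETS factors *Etv4*, *Etv1* and *Etv5* by 3.05, 3.01 and 2.72 on the log2 scale. *Etv4* and *Etv5* averaged 955 and 2075 at 0 h, beside 1159 and 1890.3 at 2 h. *Dusp6*, *Dusp5*, *Dusp2* and *Spry4* averaged 267, 22.1, 1.45 and 266 at 0 h, below every sample at 2 h. *Spry4* stood at 1931 at 16 h, above its 1239 at 2 h. Exceptions were *Dusp4* (300.5 to 431, log2 fold change 0.51 ± 0.36 SE, adjusted p = 0.203), *Spred2* (393 to 263) and *Lif* (51.9 to 66.2).

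Of the 10 largest falls among genes with a mean of at least 100, all but *Ntn1* and *Aqp3* had a lower mean at 0 h than at 2 h. *Emp1*, an epithelial membrane protein gene, had the largest, from 1605, 1588, 2379 and 2506 to 17.0, 7.54, 14.1 and 13.4 (log2 fold change -7.19 ± 0.34 SE, adjusted p = 1.21e-17), with 514 at 0 h. *Cavin1*, a coat protein of caveolae, went from 4345, 4389.9, 4076 and 4015 to 70.7, 64.1, 45.7 and 44.4, with 532 at 0 h, and *Snai3*, *Smim3* and *Zfp819* from 530.0, 1128 and 1022 to 10.6, 13.2 and 16.0, with 21.6, 82.6 and 192 at 0 h. *1700061G19Rik* fell from 2255 to 25.8. *Ntn1*, the netrin gene, had its higher level already in uninduced cells, with means of 873, 621 and 7.37 at 0, 2 and 48 h, and so had *Aqp3*, an aquaporin gene, at 741, 559 and 7.19. *Aqp3* held 181, 183, 993 and 879.9 in the samples at 2 h, where the replicate pairs differed about 5-fold.

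Genes reduced to no more than 3 reads per sample at 48 h were led by *Trpm1*, a cation channel gene (305, 323, 246 and 236 at 2 h, at least 78.2-fold lower at 48 h), and *Ptgs2*, the inducible cyclooxygenase (138, 144, 181 and 208, at least 47.2-fold). *1700042O10Rik* was at least 40.3-fold lower and *Fcgr2b*, an Fc receptor gene, at least 39.7-fold. The 5 largest losses in normalized counts were those of *Zfp57*, *Fn1*, *Bcat1*, *Flna* and *Jam2*. *Fn1*, the fibronectin gene, went from 8873, 8786, 15484 and 16103 to 939, 1149, 1519 and 1530.5 (log2 fold change -3.23 ± 0.24 SE, adjusted p = 3.97e-13). *Bcat1*, a branched-chain aminotransferase gene, fell from 7819.5 ± 681 to 800.1 ± 75.1, and *Jam2*, a junctional adhesion gene, from 6254 ± 2034 to 140.1 ± 32.5.

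Target genes of SRF and YAP follow the actin cytoskeleton. Of 17 tested, 3 fell (17.6%) and none rose, beside 7.65% and 8.5% of all tested genes (median -0.31). These were *Flna*, the filamin gene (8985, 8667, 7915 and 8303 to 1029, 1057, 1858 and 2051), *Vcl*, vinculin (1719 ± 136 to 408 ± 73.1), and *Ctgf*, a matricellular growth factor (749, 675, 741 and 699 to 97.0, 98.0, 139.9 and 127, log2 fold change -2.64 ± 0.23 SE, adjusted p = 1.45e-11). *Vcl* was short of the threshold without replicate 1 at 48 h (-1.98) and in replicates 3 and 4 alone (-1.78). At 96 h the means of the 3 genes were 9048, 1082 and 2820.5, above those at 48 h. At 0 h they were 4023.5, 532 and 94.5, below those at 2 h. *Cyr61*, a relative of *Ctgf*, overlapped between the groups (537 to 670.4), and *Tpm4*, *Tpm1* and *Amotl2* were higher by the FDR alone, at log2 1.20, 0.99 and 1.44. The CArG box, which SRF binds, was searched on both strands and was in 1.63% of all promoter windows. Counting a gene if any of its windows held the box, the share was 1.58% of the tested genes with a window. It was 2.17% of those called higher and 2.41% of those called lower, 21 and 19 genes. The box was also searched in 18 fallers, named for their large fall, near absence at 48 h or as immediate early genes. Of these 8 had a window, and none held the box. *Flna*, *Vcl* and *Ctgf* were not among the 18. With so low a share over all tested genes, its absence from 8 genes says little of them.

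Of 17 tested Wnt target and feedback genes 8 fell (47.1%) and 2 rose (11.8%), beside 7.65% and 8.5% of all tested genes (median -1.71). *Notum*, a secreted Wnt deacylase gene, fell from 255, 231, 198 and 211 to 4.71, 7.54, 1.76 and 2.06 (log2 fold change -5.63 ± 0.29 SE, adjusted p = 7.45e-17) and *Cdx1*, a homeobox gene, from 221 ± 22.6 to 7.59 ± 1.62. *Sp5* fell from a mean of 25.6 normalized counts to 0 in every sample, and *Nkx1-2*, *Tcf7*, *Fzd10*, *Ccnd1* and *T* fell as well. *T*, the brachyury gene, held 209, 162, 16.4 and 14.0 at 2 h, with replicates 1 and 2 about 12 times above replicates 3 and 4, and never exceeded 1 read at 48 h. The 2 that rose were *Dkk1* and *Ascl2*, and *Axin2* went from 337 to 104, short of the threshold. At 0 h, in the presence of a GSK3 inhibitor, *Notum*, *Cdx1* and *Sp5* had averaged 436, 589 and 169, above their means at 2 h.

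PDGF and FGF components changed on the side of both ligands and receptors. Of 16 tested members 8 rose and 3 fell (median 2.22). *Pdgfra*, the receptor used to mark PrE cells, held 17.7, 18.1, 22.3 and 23.8 at 2 h and 7865, 8202, 9319 and 9934 at 48 h (log2 fold change 8.69 ± 0.14 SE, adjusted p = 6.57e-29). Its ligand genes *Pdgfa* and *Pdgfc* went from 608 and 384 to 196 and 10.3, of which *Pdgfc* fell (log2 fold change -5.15 ± 0.28 SE, adjusted p = 4.40e-16) and *Pdgfa* was lower by the FDR alone, and *Pdgfd* rose to 11.4. Among FGF receptors *Fgfr2* rose from 5.19, 2.26, 12.9 and 14.0 to 876, 910.1, 1079 and 1119 (log2 fold change 6.94 ± 0.34 SE, adjusted p = 3.43e-17), *Fgfr3* from 9.11 ± 4.83 to 513 ± 105 and *Fgfr4* from 10.5 ± 1.46 to 205 ± 47.9. *Fgfr1* stood at 430.3 ± 47.1 and 129.8 ± 40.2, short of the threshold, and the coreceptor *Klb* rose by log2 7.01 ± 0.29 SE. The ligand *Fgf4*, secreted by Epi cells, fell from 768 ± 124 to 86.2 ± 33.6, and *Fgf17* fell too, whereas *Fgf3* and *Fgf10* rose (log2 5.51 and 3.56).

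In the Nodal and BMP pathways 4 of 22 tested members (18.2%) rose and 5 (22.7%) fell, beside 8.5% and 7.65% of all tested genes (median 0.61). *Nodal* fell from 312, 282, 515 and 429 to 18.8, 28.3, 15.8 and 27.9 (log2 fold change -4.02 ± 0.22 SE, adjusted p = 2.21e-16), with its coreceptor *Tdgf1* (3393 to 317), its inhibitor *Lefty2* (169 to 13.3), *Bmp4* (255 to 18.3) and *Inhbb* (144 to 12.0). *Cfc1*, the other coreceptor of the family, had 0 reads at 2 h and 94.2, 84.8, 160.1 and 147 at 48 h, at least 42.7-fold more. *Bmp2* rose from 8.31, 6.04, 7.03 and 14.0 to 377, 373, 359.8 and 449 (log2 fold change 5.37 ± 0.31 SE, adjusted p = 1.45e-15) and the inhibitor *Smad6* by log2 3.17. *Id1* and *Id2*, targets of BMP signalling, passed the FDR alone (log2 1.88 and 1.46).

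LIF was in the medium at both times, and 2 of 12 tested genes of its pathway rose, both receptor chains, beside 8.5% of all tested genes. *Lifr* held 513, 528, 379.9 and 464 at 2 h and 1660.2, 1884, 3213 and 3406 at 48 h (log2 fold change 2.37 ± 0.21 SE, adjusted p = 2.44e-11), and *Osmr* rose from 2.91 ± 2.73 to 29.6 ± 10.1. In replicates 1 and 2 alone both were short of the threshold, *Lifr* at 1.76 and *Osmr* at 1.89, against 2.98 and 4.67 in replicates 3 and 4, and *Osmr* was also short of it with a pseudocount of 8 (1.78). *Il6st*, the shared chain, and *Socs3*, the feedback target, overlapped between the groups (1205 to 1418 and 831 to 996). In retinoid handling 4 of 15 members (26.7%) rose and 2 (13.3%) fell, beside 8.5% and 7.65% of all tested genes (median -0.05). *Cyp26b1* and *Cyp26a1*, which degrade retinoic acid, *Stra6* and *Aldh1a1* rose, and the receptor *Rarg* was among those that fell. *Cyp26a1* held 8.31, 9.06, 14.1 and 9.85 and 178, 173, 111 and 110.4 (log2 fold change 3.66 ± 0.26 SE, adjusted p = 2.38e-13), beside 1.32 at 24 h and 405 at 96 h.

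Of 16 integrin and cadherin genes 5 fell (31.25%) and none rose, beside 7.65% and 8.5% of all tested genes (median -1.39). *Cdh1*, E-cadherin, held 4683, 4756, 6215 and 6462 at 2 h and 1413, 1445, 1136 and 1118 at 48 h (log2 fold change -2.11 ± 0.15 SE, adjusted p = 8.92e-14), and *Cdh2*, N-cadherin, fell from 53.9 ± 11.6 to 7.59 ± 1.36. The laminin-binding integrin chains *Itga6* and *Itga7* fell by 2.28 and 3.26 and *Itga1* by 2.16 on the log2 scale, while *Itgb1* stood at 2548 to 3121. In replicates 1 and 2 alone *Itga6* (-1.39) and *Cdh1* (-1.72) were short of the threshold. *Itga1* was short of it in replicates 3 and 4 alone (-1.85), without replicate 2 at 48 h (-1.95) and with a pseudocount of 8 (-1.23). Among 23 keratin, tight junction and polarity genes 7 (30.4%) rose and 2 (8.70%) fell, beside 8.5% and 7.65% of all tested genes (median 0.71). *Amot*, the angiomotin gene, rose from 21.8, 24.2, 25.8 and 22.2 to 3289, 3542, 3987 and 4261 (log2 fold change 7.26 ± 0.12 SE, adjusted p = 3.35e-28), *Pdzk1*, a microvillar scaffold, from 4.66 ± 2.18 to 151 ± 37.7, and the cingulin genes *Cgnl1* and *Cgn* by log2 4.48 and 2.85. *Crb2* and *Cldn6* rose by log2 4.04 and 3.09. *Cldn4* and *Marveld3* fell, *Cldn4* by 1.95 on the log2 scale in replicates 1 and 2 and by 4.52 in replicates 3 and 4. *Krt8* and *Krt18* stood at 602 to 1732 and 604 to 1005, both short of the threshold.

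Secretory and lysosomal genes were shifted broadly but mostly by less than 4-fold. Of 28 genes of ER folding and transport 7 rose and none fell, and 25 were higher by the FDR alone, against 36.9% of all genes. The median was 1.16, and the list's share of reads went from 0.831% ± 0.0123 to 2.14% ± 0.241. *Creb3l2* and *Creb3l1*, transcription factors of the secretory pathway, rose by log2 4.50 ± 0.35 SE and 3.96 ± 0.19 SE, *Kdelr3*, a retrieval receptor, from 70.7, 66.4, 77.4 and 88.6 to 1339.9, 1206, 1522 and 1551 (log2 fold change 4.20 ± 0.20 SE, adjusted p = 8.00e-18), and *Sec24d*, a cargo adaptor, by log2 2.22 ± 0.12 SE. *Xbp1*, *Pdia6* and *P4hb* also passed. Of the stress factors, *Ddit3* overlapped between the groups (104 to 137) and *Atf4* was the member lower by the FDR (4374 to 2375).

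Of 29 lysosomal genes 6 rose and none fell, 26 were higher by the FDR alone, and the median was 1.14. *Ctsl*, cathepsin L, held 1204, 1241, 1361 and 1404 at 2 h and 28552, 27086, 35430.0 and 36386 at 48 h (log2 fold change 4.60 ± 0.08 SE, adjusted p = 1.15e-27). *Lgmn*, legumain, rose from 435 ± 117 to 7256 ± 1009.7, *Ctsz* from 277 ± 16.3 to 3067 ± 711 and *Lipa*, the acid lipase, from 13.4 ± 1.36 to 218 ± 37.7. *Ctsh* and *Naglu* were the other 2, and 1 member was lower by the FDR alone.

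In glycolysis 2 of 26 genes (7.69%) rose and 2 (7.69%) fell, beside 8.5% and 7.65% of all tested genes (median 0.36). *Pfkl*, the liver isoform of phosphofructokinase, held 513, 530.0, 386 and 376 at 2 h and 7183, 7349, 8521 and 8412 at 48 h (log2 fold change 4.13 ± 0.16 SE, adjusted p = 9.27e-20), while *Pfkp*, the platelet isoform, fell from 3917, 3879, 3629 and 3717 to 929, 1023, 692 and 667 (log2 fold change -2.22 ± 0.16 SE, adjusted p = 3.36e-13). Per kilobase of exon *Pfkp* was the higher of the 2 at 2 h (282 against 67.6) and *Pfkl* at 48 h (1178 against 61.8). *Ldhb* fell from 726 ± 47.8 to 119.8 ± 28.6, with *Ldha* at 5523 to 12638, and the lactate exporter *Slc16a3* rose by log2 4.62 ± 0.42 SE. None of 22 cholesterol synthesis genes, 34 oxidative phosphorylation genes or 44 ribosomal protein genes passed the threshold in either direction. By the FDR alone 10 and 4, 5 and 19, and 0 and 20 of them were higher and lower, and their medians were 0.20, -0.20 and -0.16.

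**Figure D4:**
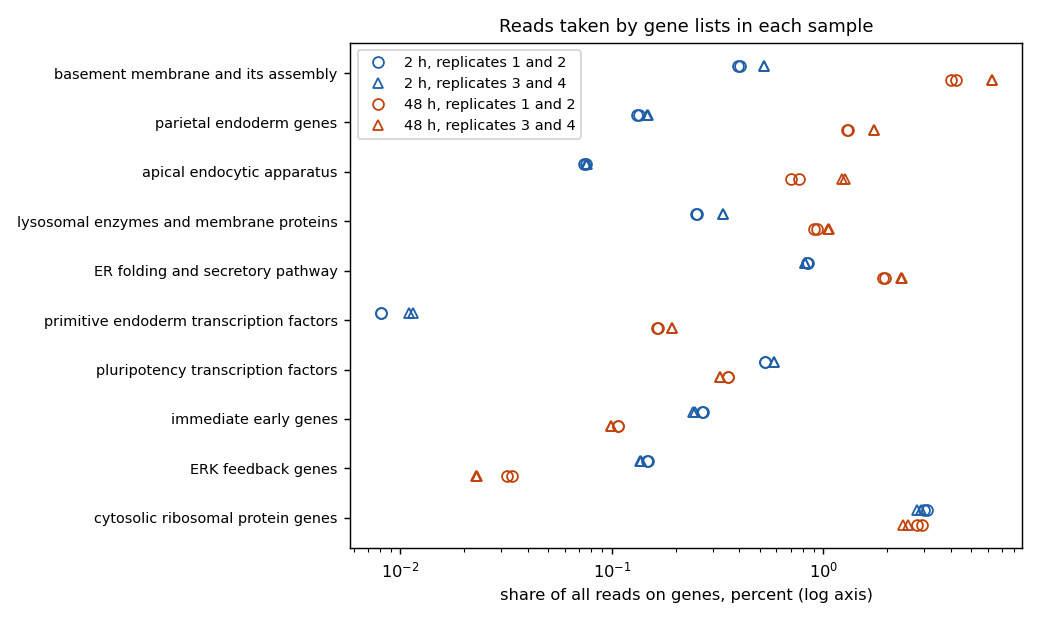
Share of all reads on genes, in percent on a log axis, taken by 10 gene lists in each sample at 2 h (blue) and 48 h (red), with replicates 1 and 2 as circles and 3 and 4 as triangles. Basement membrane genes go from 0.397 to 0.526% at 2 h to 4.01 to 6.27% at 48 h, while ribosomal protein genes stay between 2.39 and 3.08%.

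Among G1 regulators cyclin D1 fell and cyclin D2 rose. Of 22 tested members 2 (9.09%) rose and 3 (13.6%) fell, beside 8.5% and 7.65% of all tested genes (median -0.25). *Ccnd1*, cyclin D1, held 1087, 1134, 801 and 820.0 at 2 h and 45.2, 47.1, 39.6 and 45.4 at 48 h (log2 fold change -4.39 ± 0.13 SE, adjusted p = 1.69e-22), and *Ccnd2*, cyclin D2, 41.6, 58.9, 12.9 and 8.21 and 359, 390.0, 492 and 525 (log2 fold change 4.19 ± 0.53 SE, adjusted p = 4.22e-08). Per kilobase *Ccnd1* was at 204 and *Ccnd2* at 3.23 at 2 h, and at 9.41 and 46.9 at 48 h. *Ccnd3* overlapped between the groups (964 to 1012). *Cdk6*, a partner kinase, fell from 538 ± 71.8 to 49.0 ± 8.06, *Myc* fell as given above, and the inhibitor *Cdkn1c* rose from 20.5 ± 8.44 to 209 ± 70.8. None of 14 apoptosis and p53 target genes passed the threshold, with 5 higher and 5 lower by the FDR alone and a median of 0.10.

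Markers of other cell types were low at both times, with some exceptions. Of 9 tested trophoblast markers 4 rose, namely *Plac1* (at most 3 reads at 2 h, 557 ± 34.8 at 48 h), *Ascl2* (126, 122, 36.1 and 48.5 at 48 h), *Krt7* and *Hand1* (52.8 ± 22.1). The defining markers *Cdx2* (43.7 to 29.5) and *Tfap2c* (131 to 194) overlapped between the groups, *Eomes* stood at 113 to 167, and *Elf5* had at most 1 read. *Krt7* rose by log2 5.13 in replicates 1 and 2 and by 1.11 in replicates 3 and 4. The list summed to 0.00314 to 0.00597% of reads at 2 h and 0.0132 to 0.0186% at 48 h. Of 4 tested neural markers *Sox1*, *Tubb3* and *Olig2* fell, of 3 mesoderm markers *T* fell, and of 5 blood and endothelial markers *Cdh5*, VE-cadherin, rose, to 58.4, 50.9, 139 and 132 from at most 3 reads at 2 h. These lists summed to 0.00656 to 0.00874%, 0.000840 to 0.00315% and 0.00724 to 0.0110% of reads at 2 h and to 0.00193 to 0.00306%, 0.00110 to 0.00168% and 0.00314 to 0.00436% at 48 h. Of 8 fibroblast markers 7 had too few reads to be tested, and *Thy1* stood at 10.8 to 2.18. Among the untested members of these lists *Mesp1*, *Msgn1*, *Neurog2*, *Col3a1*, *Dcn* and *Hba-a1* had 0 reads in all 8 samples. The untested members with most reads at 2 h were *Col1a1*, *Pax6*, *Ptprc*, *Mixl1* and *Neurod1*. They had up to 21, 11, 10, 8 and 8 reads in a sample at 2 h and up to 3, 4, 0, 5 and 6 at 48 h. The part of other cell types in these values was not tested.

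Genes that separate PrE from Epi cells in the blastocyst, listed by the study from single-cell data of embryos and thus not from these samples, moved largely in their own direction. Of 579 PrE genes, all tested, 200 rose, 3 fell and 376 did not pass (34.5% higher, against 8.5% of all genes, median 1.32). They took 5.83% ± 0.317 of reads at 2 h and 19.3% ± 1.98 at 48 h. The 3 that fell were *Mras* (1513 to 353), a Ras-family GTPase, *Phlda1* (1019 to 194), also an ERK feedback gene, and *Tnfrsf12a* (656 to 139.9), a TWEAK receptor. Of 221 Epi genes 217 were tested, 77 fell and 5 rose (35.5% lower, against 7.65% of all genes, median -1.44). The 5 that rose were *Dnmt3l*, *Slc16a3*, *Cdkn1c*, *Pdpn* (63.4 to 426) and *Aass* (1.72 to 20.2). The largest fall among Epi genes was that of *Sfn*, a 14-3-3 protein gene, from 2883 ± 239.6 to 59.4 ± 16.0 (log2 fold change -5.61 ± 0.17 SE, adjusted p = 1.68e-22), and by the FDR alone 517 PrE genes were higher and 183 Epi genes lower.

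The pairs of replicates gave the same sign for every called gene. The calls were made on these same samples, so neither this nor the counts shared by the pairs is an independent check. Of the 1294 called higher 1052 passed the threshold in both pairs alone, and of the 1165 called lower 878 did. The median absolute difference between the pairs was 0.32 on the log2 scale over all tested genes. It exceeded 2 for 40 genes with a mean of at least 100 at either time, of which 22 had the larger value in replicates 1 and 2. Among the genes named above these were *Krt7*, *Dnmt3l*, *T*, *Ccnd2* (2.89 and 5.49), *Sox7* (6.77 and 9.22), *Aqp3* (-4.46 and -6.97), *Cldn4* and *Tfap2c* (1.45 and -0.62), with replicates 1 and 2 given before 3 and 4.

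**Figure D5:**
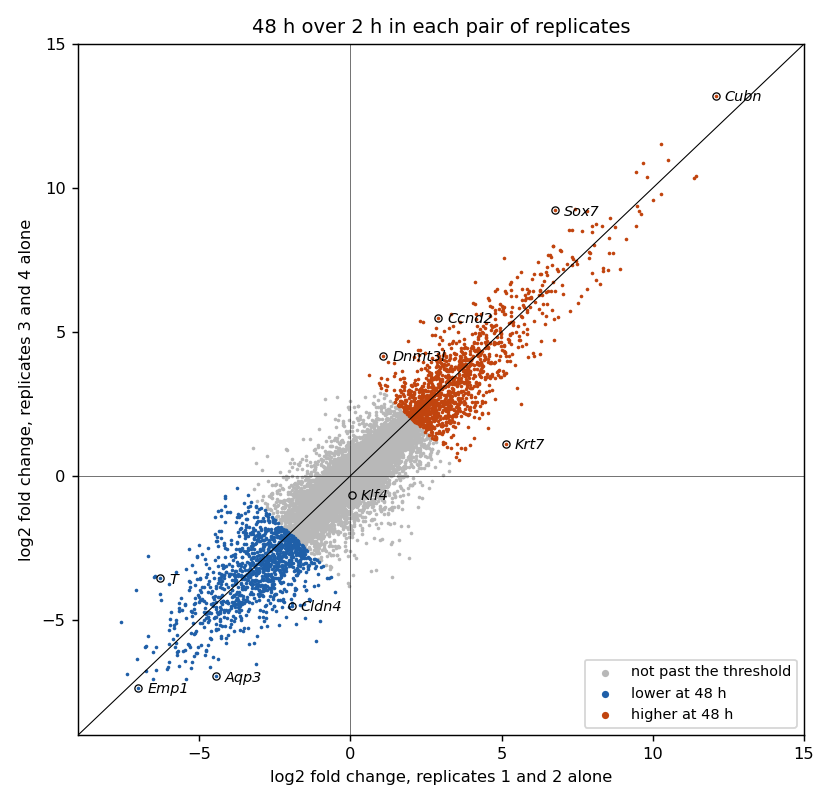
Log2 fold change of 48 h over 2 h from replicates 1 and 2 alone (x axis) and from replicates 3 and 4 alone (y axis) for each tested gene, coloured by the call over all 4 replicates. All 1294 genes called higher (red) lie in the upper right and all 1165 called lower (blue) in the lower left, with *Krt7* and *Dnmt3l* among the farthest from the diagonal.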

How the data were processed

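Bulk RNA-seq libraries (TruSeq Stranded mRNA, single end) of 32 samples at 8 time points were used, 4 per time point. Groups and replicate numbers came from the sample titles. Per the labels and the paper's methods, the authors assessed reads with FastQC 0.11.8, trimmed them with cutadapt 2.7, used HISAT2 2.1.0 for alignment (GRCm38.p6) and counted them per gene with featureCounts (Subread 1.6.4) on GENCODE annotation. The authors deposited log2 values from the variance stabilizing transformation of DESeq2, in 1 table with an added row for the transgene.

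The lowest value, 1.58, stands for no reads. Inverting the transformation gave normalized counts, and 100% of values came out as whole reads (tolerance 0.001, largest distance 3.5e-09). Genes with at least 10 normalized counts in at least 4 samples entered limma 3.58.1 (R 4.3.3) as log2(normalized count + 1) (lmFit, contrasts, eBayes with a trend), fitted over all 32 samples, two-sided. Genes had to pass an FDR of 0.1 and a 4-fold change. On simulated data of this comparison (13983 genes, of which 200 were changed) the fit found 200 of the changed ones, in the right direction, and called 0 others. The simulated samples had no replicate pairs, and the changes lay well past the threshold on genes with ample reads. The recovery therefore says nothing of calls near the threshold, on few reads or with paired replicates. Where every sample of a group had at most 3 reads, a fold is a lower bound against 3 reads per library. Such bounds cover counting error alone, as the sources used here mention no molecular identifiers. Figures used Python 3.11.15 and matplotlib 3.10.9.

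Of 54233 rows 29140 lacked a symbol in the deposited table, and an identifier table supplied one for 29046. Exon lengths are from GENCODE M21, and promoter windows, motif positions and start sites from RefSeq on GRCm38.p6. Without a statement of how strand was used in counting, reads of overlapping antisense genes cannot be told apart.

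The comparison and the gene lists were chosen with earlier results of these data known. Named genes are a fixed panel, the 10 largest rises and falls with a mean of at least 100, the 5 highest genes with at most 3 reads on the other side, the 5 largest gains and losses in counts, and in each list the 4 largest changes, or all where 5 or fewer passed. Other list members were named after their values were seen. Results for some of these genes are not reported here. TMM factors were computed by the published procedure. Alternatives covered the pseudocount, filter, scaling, samples in the fit, model, threshold, replicate block, replicate pairs and each replicate in turn.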

Additional observations from a re-analysis of the deposited data

Results flagged for a closer look

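In 8 of 257 groups of 4 samples, taken over the named genes at 2 h and at 48 h, 1 sample stood apart from the other 3 by Dixon's test on the log2 scale. Chance gives about 1 in 20 groups where the 4 samples are independent, but these samples fell into pairs. Whether the flags are more frequent than chance gives can therefore not be judged from that rate. At 2 h they were *Zfp819* in replicate 3 (914 normalized counts against 1046 to 1069 in the others), *Fcgr2b* in replicate 3 (114 against 148 to 152), *Slc16a3* in replicate 3 (11.7 against 31.2 to 36.2), *Ctsh* in replicate 2 (0.755 against 3.12 to 3.52) and *Lipa* in replicate 1 (11.4 against 14.0 to 14.3). At 48 h they were *Sox17* in replicate 1 (1105 against 1052 to 1061), *Dusp2* in replicate 2 (7.54 against 1.76 to 2.06) and *Pdgfc* in replicate 4 (5.16 against 11.3 to 13.2). Each of these genes kept its direction without the sample that stood apart.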

How the results depend on the processing

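The counts depended on how low values were handled and on the threshold itself. With a pseudocount of 8 in place of 1, 817 genes were higher and 637 lower, and with only genes whose mean normalized count was at least 50, 662 were higher and 506 lower. With a minimum log2 fold change of 1 the counts were 2874 and 2548, and those of the study's lists were 365 PrE genes higher and 140 Epi genes lower, in place of 200 and 77. All other alternatives kept each of these 4 counts within 1.5 times its value. They gave 1020 to 1452 genes higher and 858 to 1348 lower over a pseudocount of 0.5, no filter beyond 1 read, TMM factors, limma-voom on the recovered reads, the log2 values as deposited, the 8 samples alone, the pairs of replicates averaged or alone, and an FDR of 0.05. Leaving out each replicate in turn gave 1257 to 1329 genes higher, 1135 to 1191 lower, 195 to 206 PrE genes higher and 73 to 77 Epi genes lower. Of 140 named genes none changed direction under these alternatives, except *Klf4*, whose log2 fold change was 0.0489 (adjusted p = 0.58) in replicates 1 and 2 alone. Of the same genes 117 remained tested at a mean of at least 50, and 11 lost their call with a pseudocount of 8, 5 with the values as deposited, 10 in replicates 1 and 2 alone and 4 in replicates 3 and 4 alone. Leaving out 1 library ended the call of *Myc* (without replicate 1 or 2 at 2 h or 3 or 4 at 48 h, log2 fold change -1.87 to -1.82), *Col18a1* (without replicate 1 at 2 h, -1.96), *Vcl* (without replicate 1 at 48 h, -1.98), *Itga1* (without replicate 2 at 48 h, -1.95) and *Dppa3* (without replicate 3 at 48 h, -1.88). Replicate numbers are shared between the time points, but the deviations of samples with the same number from their group means correlated by only 0.0716 to 0.0987. The numbers were therefore not taken to pair the samples. The replicate pairs did recur at both times. Deviations correlated by 0.0543 to 0.0987 between samples of the same pair and by -0.104 to -0.0679 across the pairs. With the number as a replicate block 1294 genes were higher, 1165 lower, and 200 PrE and 77 Epi genes passed. In this balanced design the block cannot change a log2 fold change. Nor can fitting the 8 samples alone or averaging the pairs, so the counts of these alternatives could move only through the FDR. Each of the samples at 2 h correlated best with its own number, whereas replicate 1 at 48 h correlated best with replicate 2 at 2 h (0.0871). Depth limits the genes with few reads: 3 reads were 2.26 to 3.52 normalized counts at 2 h and 2.64 to 5.65 at 48 h.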

Other observations

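Several genes not described above separated the pairs of replicates at 2 h, chosen here after their values were seen. *Trh*, which encodes a hypothalamic hormone precursor, averaged 8491 normalized counts in replicates 1 and 2 and 983 in replicates 3 and 4 at 2 h, and 60.8 and 62.2 at 48 h. *Calcoco2*, an autophagy receptor gene, averaged 185 and 1283 at 2 h and 210.1 and 178 at 48 h, so its log2 fold change was 0.18 in replicates 1 and 2 and -2.84 in replicates 3 and 4. The imprinted genes *Peg10*, *Sgce* and *Igf2* were also among the 40 genes whose pairs differed by over 2 on the log2 scale. *Peg10* averaged 833 and 2140.2 at 2 h and 9553 and 3664 at 48 h, and its neighbour *Sgce* had log2 fold changes of 4.55 and 2.17. *Thbs1*, the thrombospondin gene, went from 141 to 60.8 in replicates 1 and 2 and from 103 to 194 in replicates 3 and 4. With *Tfap2c*, *Adgre5*, *Gm43980* and *Calcoco2* it was 1 of 5 genes of the 40 with opposite signs in the pairs. The cause of the difference between the pairs was not tested.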
